A study of Homo sapiens with 6 samples.

Results

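The genes described here encode the machinery that turns a hairpin RNA into a silencing complex. They were chosen by name, from their known roles, but with earlier results of these data known. They are DROSHA, DGCR8, XPO5, DICER1, AGO1, AGO2, AGO3, AGO4, TNRC6A and TNRC6B, 10 of the 56637 gene symbols counted in each library. All 10 were found under these symbols, and all 10 passed the filter on low counts. In the microRNA pathway DROSHA cuts a hairpin out of a primary transcript with the help of DGCR8, exportin 5 (XPO5) carries it out of the nucleus, and DICER1 removes the loop. One strand is then held by an Argonaute protein (AGO1 to AGO4), which pairs with messenger RNAs and recruits a GW182 protein (TNRC6A, TNRC6B or TNRC6C) that calls in the enzymes that shorten poly(A) tails and remove caps. A short hairpin RNA expressed from a lentivirus borrows the later steps of the same route.

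RNA was sequenced from the human myeloma line MM.1S, grown from a cancer of plasma cells. One group, called shKDM6B, had been transduced by lentivirus with an shRNA against KDM6B, which encodes a demethylase of histone H3 lysine 27. The other, called shLuc, had received an shRNA against luciferase, a firefly enzyme that these cells do not encode. Both groups were selected with puromycin and each gave 3 libraries of total RNA. All 6 libraries therefore came from cells that carried a hairpin, and the comparison sets one hairpin against another, not a hairpin against none. The labels give no hairpin sequence and name 1 target per group, so loss of KDM6B and any other effect of that hairpin cannot be told apart. The labels do not say whether the cultures of a group were kept apart after transduction. Each p-value therefore rests on how far these 3 libraries per group vary, and that variation may be technical alone.

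The libraries held 7338393 to 9848351 counts, and KDM6B itself averaged 32.6 ± 2.37 CPM in shKDM6B and 53.8 ± 4.90 CPM in shLuc (SD, n = 3 each; log2 fold change -0.71, adjusted p = 7.72e-08). All 9 plasma cell markers checked were at or above 1 CPM in every library. They summed to 2599.5 to 2928.5 CPM in shKDM6B and 2755 to 3013 CPM in shLuc, and by the threshold below 1 was higher and 2 were lower in shKDM6B. CD22, one of the B cell markers checked, was at 0. T cell markers summed to 4.66 to 6.06 CPM in shKDM6B and 7.14 to 8.70 CPM in shLuc. Erythroid markers summed to 10.4 to 13.0 CPM in shKDM6B and 19.3 to 23.6 CPM in shLuc. The sums of monocyte and of fibroblast markers overlapped between the groups. Keratin and other epithelial markers, which a plasma cell line should lack, summed to 2.73 to 49.9 CPM in shKDM6B and 3.42 to 14.6 CPM in shLuc. Of the 5 that were tested, 4 were higher in shKDM6B by the same threshold. Keratins and S100A2, a marker of the same list, were also summed as CPM of the raw library total, without TMM scaling. This sum stood at 34.7 and 48.7 CPM in shKDM6B libraries 1 and 2 and at 12.9 CPM in shLuc library 1. It stood at no more than 2.83 CPM in the other 3 libraries. The 3 libraries with the larger sums are called keratin-bearing below. Leaving out the 3 keratin-bearing libraries left 1 shKDM6B and 2 shLuc libraries. In that fit AGO4, with a log2 fold change of -0.227 against -0.233 over all 6, no longer passed the threshold. Nor did the called list genes NCBP3, TSN, TRIM71, DCP1A, LSM14B, GIGYF1, DIS3L2, DHX9, STAU2 and IFIH1. The changes of TSN, TRIM71 and STAU2 were larger there, that of IFIH1 was alike, and those of the other list genes named were smaller. Why these calls were lost was not tested. Apart from the sum of keratins and S100A2, CPM is the library-size-adjusted count scaled by TMM, a method that sets libraries to a common level. Every adjusted p below is from edgeR's quasi-likelihood test with Benjamini-Hochberg adjustment over 13839 genes unless another tool is named, and the threshold was 0.05. Fold changes are shKDM6B over shLuc.

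Of the 10 genes, DICER1, XPO5 and AGO1 were higher in shKDM6B cells and AGO4 was lower. The other 6 did not pass the threshold. The share called, 40%, stood beside 39.1% of all genes tested (20.1% higher and 18.9% lower), or 45.1% of those with a mean of at least 20 CPM, so that as a group the machinery was called about as often as any other genes. The 2 groups did not overlap for 6 of the 10 genes, against 48.4% of all genes tested. The median log2 fold change was 0.13 over the 10 genes and -0.01 over all genes tested, and the median size of a change without its sign was 0.14 for the 10 genes and 0.16 for all genes tested. The values below are given gene by gene, in the order in which the proteins act on a hairpin.

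**Figure D1:**
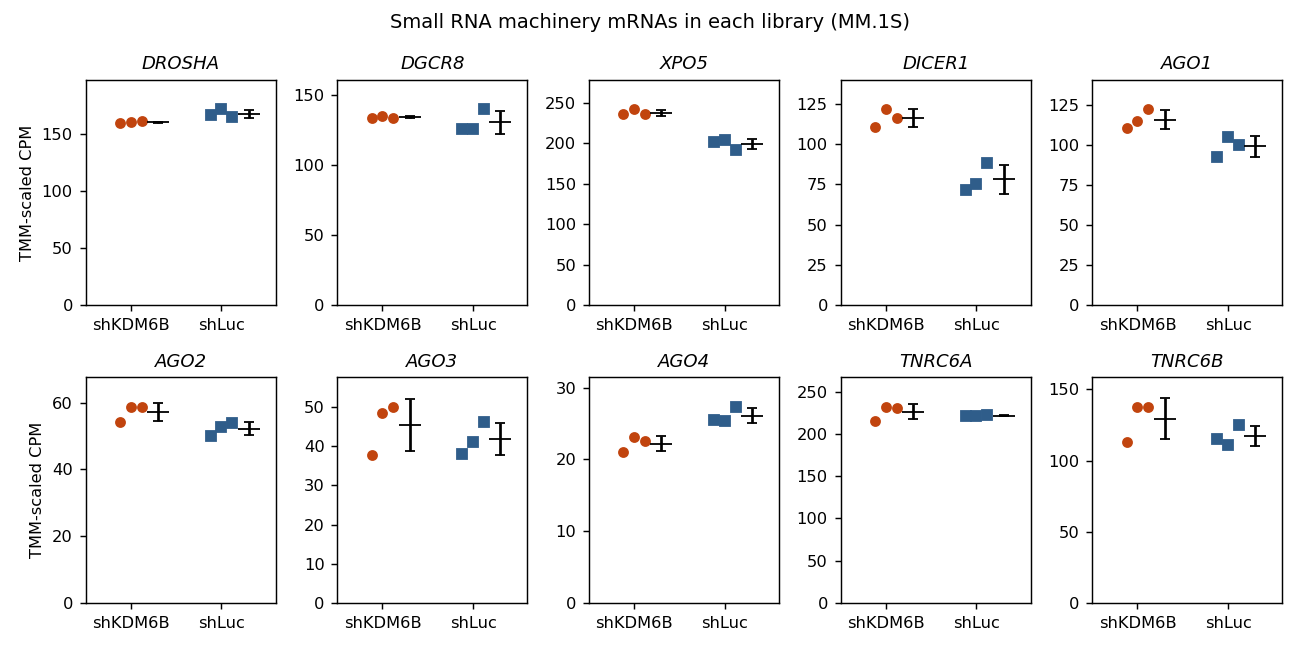
TMM-scaled CPM of each of the 10 genes in each library, with shKDM6B (circles) left of shLuc (squares); the bar beside each group is the mean with its SD over 3 libraries, and every y axis starts at 0. DICER1 shows the widest gap, with 116 CPM in shKDM6B and 78.2 CPM in shLuc on average, and AGO4 sits lower in all 3 shKDM6B libraries.

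Neither member of the nuclear cropping step passed the threshold. DROSHA, the RNase III enzyme that makes the first cut, had 160.1, 160.5 and 161 CPM in shKDM6B libraries 1 to 3, against 167, 172 and 165 CPM in shLuc libraries 1 to 3. All 3 shKDM6B libraries lay below all 3 shLuc libraries, but the gap was small: means were 161 ± 0.554 CPM in shKDM6B and 168 ± 3.76 CPM in shLuc (SD, n = 3 each), with a log2 fold change of -0.06 ± 0.04 (SE), a 95% interval of -0.15 to 0.02 and an adjusted p of 0.24. The SD of DROSHA in shKDM6B was 0.345% of its mean, narrower than the 2.69% that independent counting alone would give. An SD below that of counting alone was seen in 8 of the 20 combinations of gene and group.

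DGCR8, the double-stranded RNA-binding partner of DROSHA, had 134, 135 and 133 CPM in shKDM6B libraries 1 to 3, against 126, 126 and 139.7 CPM in shLuc libraries 1 to 3. The groups overlapped, since shLuc library 3 was above every other library. Its log2 fold change was 0.04 ± 0.05 (SE; 95% interval -0.06 to 0.13; adjusted p = 0.573). DGCR8 is itself a substrate of the enzyme it serves: hairpins in its own mRNA are cut by the DROSHA complex. The mature microRNAs of 2 such hairpins are shown because they lie in the exons of a member; MIR1306 lies in coding sequence, whereas MIR3618 is not wholly coding. DICER1 holds another, MIR3173, on its own strand but not wholly within an exon. Capitals mark the seed, bases 2 to 8, and sequences and coordinates are from RefSeq on GRCh38.p14.
hsa-miR-3618 (chr22:20085797-20085818, plus strand): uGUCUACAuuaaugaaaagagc
hsa-miR-1306-5p (chr22:20086072-20086093, plus strand): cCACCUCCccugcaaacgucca
hsa-miR-1306-3p (chr22:20086112-20086129, plus strand): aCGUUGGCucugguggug
hsa-miR-3173-5p (chr14:95137961-95137982, minus strand): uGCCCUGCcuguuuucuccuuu
hsa-miR-3173-3p (chr14:95137923-95137944, minus strand): aAAGGAGGaaauaggcaggcca
No 2 of the 5 share a seed. MIR3618, MIR1306 and MIR3173 had 0 counts in all 6 libraries. The kit named in the labels is one for long RNA, so a count of 0 says nothing about the mature microRNAs, and reads over the 88 bases of MIR3618 and 85 bases of MIR1306 inside DGCR8 exons may have been counted for either gene or neither. TRMT2A, a tRNA methyltransferase gene on the opposite strand, shares 12 bases with DGCR8 exons and had a log2 fold change of 0.10 (adjusted p = 0.0721).

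Among the other genes of the cropping list, 2 rose and 3 fell of the 9 tested, members included. ZC3H18, a protein that links the cap-binding complex to RNA decay, averaged 158 ± 1.85 CPM in shKDM6B and 138 ± 3.89 CPM in shLuc (SD, n = 3 each; log2 fold change 0.19, adjusted p = 0.000917). The paralogous helicases DDX17 and DDX5, accessory proteins of the DROSHA complex, were lower. DDX17 averaged 676 ± 21.1 CPM in shKDM6B and 762 ± 43.7 CPM in shLuc (log2 fold change -0.17, adjusted p = 0.0112), and DDX5 averaged 348 ± 17.9 CPM in shKDM6B and 386 ± 22.4 CPM in shLuc (log2 fold change -0.15, adjusted p = 0.0238). Both calls were lost with TMM restricted to sparsely counted genes (under 0.03 counts per base of exon), where DDX17 stood at -0.13 and DDX5 at -0.11. DDX5 was also lost without shKDM6B library 2 or 3, or shLuc library 1.

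Export was the first step with a member past the threshold. XPO5, the Ran-dependent carrier of hairpin precursors, had 236, 242 and 236 CPM in shKDM6B libraries 1 to 3, against 201, 204 and 192 CPM in shLuc libraries 1 to 3. The lowest shKDM6B library lay above the highest shLuc library, and means were 238 ± 3.74 CPM in shKDM6B and 199 ± 6.27 CPM in shLuc (SD, n = 3 each). This was a 1.2-fold rise, a log2 fold change of 0.26 ± 0.04 (SE; 95% interval 0.17 to 0.35; adjusted p = 4.6e-05). Without the keratin-bearing libraries it was 0.26. In the GENCODE 29 annotation 348 bases of XPO5 exons, or 4.08%, are shared with POLR1C, an RNA polymerase subunit gene on the opposite strand that was also higher (log2 fold change 0.15, adjusted p = 0.0192). The library kit does not mark strand as far as its name shows, and reads in that overlap cannot be told apart.

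RANBP1, a cofactor of the Ran GTPase that gives exportins their direction, was the other export gene past the threshold. It averaged 114 ± 6.67 CPM in shKDM6B and 91.7 ± 1.68 CPM in shLuc (SD, n = 3 each; log2 fold change 0.31, adjusted p = 2.08e-05). The other 3 genes of the list, RAN, RCC1 and RANGAP1, had log2 fold changes of -0.01, 0.02 and 0.06 and were not past the threshold. RAN and RANBP1 have processed copies elsewhere in the genome, and how reads that match several places were counted is not given in the sources used here.

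DICER1 had the largest change of the 10 genes. It had 110.5, 122 and 116 CPM in shKDM6B libraries 1 to 3, against 71.3, 75.1 and 88.1 CPM in shLuc libraries 1 to 3. Each shKDM6B library was above each shLuc library, although shLuc library 3 stood nearer to the shKDM6B group than the other 2. Means were 116 ± 5.65 CPM in shKDM6B and 78.2 ± 8.85 CPM in shLuc (SD, n = 3 each), a 1.48-fold rise with a 95% interval of 1.36 to 1.62-fold. The log2 fold change was 0.57 ± 0.06 (SE) with an adjusted p of 1.17e-07, and 11.4% of all genes tested had a larger one in either direction. Over 17 alternative settings it ranged between 0.51 and 0.66 and always passed the threshold, and without the keratin-bearing libraries it was 0.51. In the same libraries the ratio of DICER1 to DROSHA counts was 0.69, 0.759 and 0.723 in shKDM6B, against 0.428, 0.437 and 0.535 in shLuc. Every shKDM6B library thus held more DICER1 per DROSHA than every shLuc library. This follows from the separate levels, as DICER1 was higher and DROSHA lower in every shKDM6B library. DICER1-AS1, an antisense transcript with 80 bases in common with DICER1 exons, had 28, 49 and 46 counts in the shKDM6B libraries and 40, 67 and 53 in the shLuc libraries (log2 fold change -0.43, adjusted p = 0.0853), few beside the 519 to 1154 counts of DICER1.

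Of the 11 genes tested in the dicing and loading list, DICER1 rose, TSN fell and 9 did not pass, among them the DICER1 partners TARBP2 (0.01 on the log2 scale) and PRKRA (0.08) and the chaperones that open Argonaute for loading. TSN, a subunit of the nuclease C3PO that clears the discarded strand, averaged 148 ± 1.59 CPM in shKDM6B and 159.8 ± 2.52 CPM in shLuc (SD, n = 3 each; log2 fold change -0.11, adjusted p = 0.0314). It kept its call under 7 of the 17 alternative settings, and was lost without the keratin-bearing libraries and in 5 of the 6 fits that each left out 1 library.

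**Figure D2:**
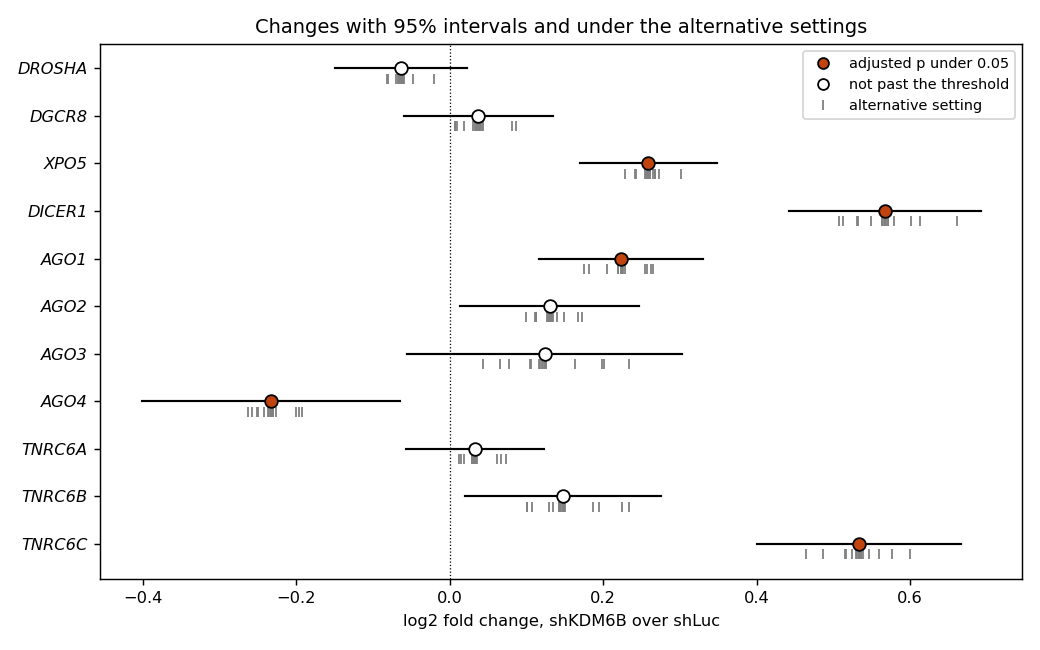
Log2 fold change, shKDM6B over shLuc, of the 10 genes and of TNRC6C, with 95% intervals as lines; filled points passed an adjusted p of 0.05, and grey ticks are the values under alternative settings. DICER1 lies at 0.57 and XPO5 at 0.26, while AGO4 at -0.23 is the 1 member called lower.

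Of the 4 Argonautes, which hold the small RNA and read the target, AGO1 rose, AGO4 fell and the other 2 did not pass. AGO1 had 110.2, 115 and 122 CPM in shKDM6B libraries 1 to 3, against 92.1, 105 and 100.05 CPM in shLuc libraries 1 to 3, and the groups did not overlap. Its means were 116 ± 6.03 CPM in shKDM6B and 99.0 ± 6.45 CPM in shLuc (SD, n = 3 each), with a log2 fold change of 0.22 ± 0.05 (SE; 95% interval 0.12 to 0.33; adjusted p = 0.00142). Under the alternative settings AGO1 ranged between 0.18 and 0.27 (log2) and kept its call throughout, with 0.26 without the keratin-bearing libraries. AGO2, the human Argonaute best known for cutting its target, had 54.2, 58.7 and 58.7 CPM in shKDM6B libraries 1 to 3, against 49.98, 52.9 and 53.9 CPM in shLuc libraries 1 to 3. All 3 shKDM6B libraries were above all 3 shLuc libraries, yet the change of 0.13 ± 0.06 (log2, SE; 95% interval 0.01 to 0.25) did not pass (adjusted p = 0.0711). It did pass without shKDM6B library 1, at 0.17 (adjusted p = 0.036).

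AGO3 had 37.7, 48.5 and 50.1 CPM in shKDM6B libraries 1 to 3, against 38.0, 41.1 and 46.2 CPM in shLuc libraries 1 to 3. In each group library 1 was lowest, and the groups overlapped. Its log2 fold change was 0.12 ± 0.09 (SE; 95% interval -0.06 to 0.30; adjusted p = 0.277), and it reached 0.23 (adjusted p = 0.0159) without shKDM6B library 1. AGO4 had 21.0, 23.1 and 22.5 CPM in shKDM6B libraries 1 to 3, against 25.5, 25.4 and 27.3 CPM in shLuc libraries 1 to 3. Here every shKDM6B library was below every shLuc library, with means of 22.2 ± 1.07 CPM in shKDM6B and 26.1 ± 1.07 CPM in shLuc (SD, n = 3 each) and a log2 fold change of -0.23 ± 0.08 (SE; 95% interval -0.40 to -0.07; adjusted p = 0.0257). AGO4 was also the most thinly counted member, at 165 to 248 counts a library. Its call was lost in 6 of 17 alternative settings: without shKDM6B library 1 (adjusted p = 0.0941), without shLuc library 3 (0.0884), without the 3 keratin-bearing libraries (0.197), with TMM from sparsely counted genes (0.0741), in the DESeq2 Wald test (0.224) and at a stricter threshold. Its direction was lower in all 17.

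AGO1 and AGO4 can also be set against each other within each library, where scaling plays no part. There were 5.25, 4.97 and 5.43 AGO1 counts per AGO4 count in shKDM6B, against 3.61, 4.13 and 3.66 in shLuc. The ratio of AGO2 to AGO4 counts behaved likewise, at 2.58, 2.54 and 2.61 in shKDM6B against 1.96, 2.08 and 1.97 in shLuc, whereas the ratios of AGO1 to AGO2 and of AGO1 to AGO3 overlapped between the groups. A ratio shows unequal change of its 2 genes and not which of them moved. That the ratios to AGO4 of AGO1 and AGO2 separated follows from the levels above and is no further evidence. Per kilobase of exon, AGO1 made up 48.6% ± 1.11 of the summed AGO level in shKDM6B and 44.6% ± 1.47 in shLuc, and AGO4 made up 17.8% ± 0.518 in shKDM6B and 22.5% ± 0.956 in shLuc (SD, n = 3 each). AGO2 made up 21.1% ± 0.387 in shKDM6B and 20.6% ± 0.239 in shLuc, and AGO3 made up 12.5% ± 1.19 in shKDM6B and 12.3% ± 0.742 in shLuc, with overlapping groups for both. These shares depend on the length used: by coding length AGO4 held 9.37% in shKDM6B and 12.1% in shLuc. AGO3 then held 18.9% in shKDM6B and 19.1% in shLuc, so that the order of AGO3 and AGO4 was reversed. The 4 genes together summed to 223, 245 and 253 CPM in shKDM6B and 206, 224 and 227 CPM in shLuc, with an overlap between the groups. Less RNA per cell and fewer cells with the RNA cannot be told apart in such bulk samples.

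**Figure D3:**
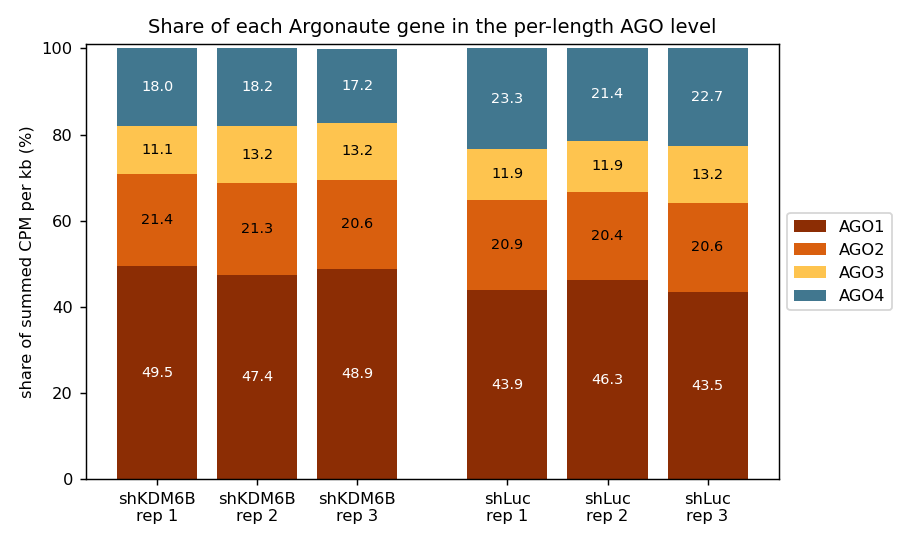
Share of each of the 4 AGO genes in their summed level, as CPM per kilobase of exon, for each shKDM6B library (left) and each shLuc library (right); numbers are percent. The AGO4 segment spans 17.2 to 18.2% in shKDM6B and 21.4 to 23.3% in shLuc.

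The 4 PIWI genes, the germline branch of the Argonaute family, were not tested because of low counts. PIWIL1 and PIWIL3 had 0 counts in all 6 libraries, and PIWIL2 and PIWIL4 had at most 3 in any library.

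Of the 3 GW182 genes, whose proteins bridge Argonaute to the deadenylases, TNRC6C rose and the other 2 did not pass. TNRC6A had 216, 232 and 231 CPM in shKDM6B libraries 1 to 3, against 221, 221 and 222 CPM in shLuc libraries 1 to 3; the shLuc libraries lay within the range of the shKDM6B ones, and the log2 fold change was 0.03 ± 0.04 (SE; 95% interval -0.06 to 0.12; adjusted p = 0.59). TNRC6B had 113, 138 and 138 CPM in shKDM6B libraries 1 to 3, against 115, 111 and 125 CPM in shLuc libraries 1 to 3. Libraries 2 and 3 of shKDM6B were above all others and library 1 was not, and the log2 fold change of 0.15 ± 0.06 (SE; 95% interval 0.02 to 0.28) did not pass (adjusted p = 0.0623). It passed in 6 of 17 alternative settings, among them without shKDM6B library 1 (0.23, adjusted p = 0.00106), without shLuc library 3 (0.19, adjusted p = 0.0187) and without the 3 keratin-bearing libraries (0.22, adjusted p = 0.00327).

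TNRC6C, the remaining GW182 paralog and not among the 10 genes, had 58.5, 62.3 and 61.7 CPM in shKDM6B libraries 1 to 3, against 37.4, 42.4 and 45.7 CPM in shLuc libraries 1 to 3. The groups did not overlap. Its log2 fold change of 0.53 ± 0.06 (SE; 95% interval 0.40 to 0.67; adjusted p = 7.54e-07) was close to that of DICER1 in size, and it passed under all 17 settings. There were 0.271, 0.268 and 0.267 TNRC6C counts per TNRC6A count in shKDM6B, against 0.169, 0.192 and 0.206 in shLuc. TNRC6C-AS1, named for its antisense position and added after the values of TNRC6C were seen, had 121, 133 and 178 counts in the shKDM6B libraries and 110, 124 and 137 in the shLuc libraries (log2 fold change 0.17, adjusted p = 0.216).

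Set in order of level per kilobase over all 6 libraries, the members ran XPO5 (25.6 CPM per kb), DROSHA (21.1), DGCR8 (18.1), TNRC6A (17.3), DICER1 (7.91), AGO1 (7.73), TNRC6B (6.16), AGO2 (3.46), AGO4 (3.32) and AGO3 (2.06). The ranges over all 6 libraries overlapped for DGCR8 and TNRC6A, DICER1 and AGO1, AGO1 and TNRC6B, and AGO2 and AGO4. Library by library, DGCR8 was above TNRC6A and AGO1 above TNRC6B in all 6. The other 2 pairs changed places between the groups: DICER1 was above AGO1, and AGO2 above AGO4, in all 3 shKDM6B libraries and in 0 of the 3 shLuc libraries. Both exchanges, and the order itself, depend on the length used. By coding length DICER1 was below AGO1 and AGO2 above AGO4 in all 6 libraries, and AGO1 was then also above DROSHA in the 3 shKDM6B libraries. By that length AGO3 was above AGO4 and DGCR8 above DROSHA as well, so the order given above holds for exon lengths only. In CPM the 10 genes summed to 1192, 1274 and 1269 in shKDM6B, against 1107, 1133 and 1158 in shLuc. Lengths are GENCODE 29 exon unions, which include long alternative untranslated ends.

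The 250 bases upstream of the annotated start are shown for the 4 members past the threshold, so that the windows of the 3 that rose can be set beside that of AGO4, which fell. They are read 5′ to 3′ on the strand of the gene from RefSeq on GRCh38.p14, and for DICER1 the first of 5 listed starts was taken. Capitals mark GGGCGG, the core of a GC box, and CCAAT, each on either strand.
XPO5 (chr6:43576039-43576288, minus strand): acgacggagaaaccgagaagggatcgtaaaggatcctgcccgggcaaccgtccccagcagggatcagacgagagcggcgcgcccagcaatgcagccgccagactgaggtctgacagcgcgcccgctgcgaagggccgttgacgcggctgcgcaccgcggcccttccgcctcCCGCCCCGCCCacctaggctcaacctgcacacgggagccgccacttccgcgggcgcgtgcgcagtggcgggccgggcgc
DICER1 (chr14:95157530-95157779, minus strand): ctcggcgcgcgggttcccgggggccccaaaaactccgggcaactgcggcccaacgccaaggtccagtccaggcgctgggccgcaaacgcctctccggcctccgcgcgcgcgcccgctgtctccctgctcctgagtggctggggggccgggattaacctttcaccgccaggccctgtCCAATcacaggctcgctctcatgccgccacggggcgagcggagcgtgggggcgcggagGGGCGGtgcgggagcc
AGO1 (chr1:35882959-35883208, plus strand): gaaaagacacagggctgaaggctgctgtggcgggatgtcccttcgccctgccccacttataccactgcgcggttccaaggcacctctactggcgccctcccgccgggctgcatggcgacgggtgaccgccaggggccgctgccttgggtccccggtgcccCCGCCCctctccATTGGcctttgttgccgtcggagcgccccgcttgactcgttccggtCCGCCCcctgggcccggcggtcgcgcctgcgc
AGO4 (chr1:35807766-35808015, plus strand): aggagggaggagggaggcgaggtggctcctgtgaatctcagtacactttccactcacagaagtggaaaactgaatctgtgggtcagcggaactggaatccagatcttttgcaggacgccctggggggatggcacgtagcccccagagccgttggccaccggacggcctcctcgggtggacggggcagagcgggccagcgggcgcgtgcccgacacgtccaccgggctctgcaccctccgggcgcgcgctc
GGGCGG was present for XPO5, DICER1 and AGO1 and in 8 of the 9 members with a window, against 42.3% of 27305 windows of the same length in the table. CCAAT was present for DICER1 and AGO1 and in 6 of the 9, against 33.0% of all windows. Neither occurred in the AGO4 window. No window was taken for AGO2. Windows rich in G and C hold GGGCGG more readily: the G and C content was 72.4% for XPO5, 74.0% for DICER1, 71.6% for AGO1 and 66.4% for AGO4, against a median of 58.0%. CACGTG and TATAAA, found in 6.49% and 11.1% of windows on either strand, occurred in none of the 9, and TGCGCA, found in 7.05%, occurred in that of XPO5 alone. These are matches of letters and not binding data. AGO4, AGO1 and AGO3 lie in tandem on chromosome 1, so the member that fell and the one that rose are neighbours there.

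Beyond the members, the 12 lists of pathway genes held 95 other genes that were tested, of which 16 rose, 21 fell and 58 did not pass. That was 38.9% called, close to the 39.1% of all genes, with a median log2 fold change of -0.02. Single lists, members included, ranged from 18.2% called (dicing and loading) to 63.6% (double-stranded RNA binding and sensing). Each list holds few genes. Among list genes with a mean of at least 20 CPM the largest change was that of CNOT6L, in the deadenylation list, the enzymes that GW182 proteins recruit. In that list 1 gene rose, 4 fell and 12 did not pass.

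Within it a pair of paralogs moved in opposite directions, each by more than any member. CNOT6, a catalytic subunit of the CCR4-NOT deadenylase, had 137, 139 and 135 CPM in shKDM6B libraries 1 to 3, against 86.5, 89.4 and 93.0 CPM in shLuc libraries 1 to 3. CNOT6L, the paralog that takes the same place in the complex, had 78.0, 87.6 and 86.3 CPM in shKDM6B libraries 1 to 3, against 129, 131 and 142 CPM in shLuc libraries 1 to 3. The log2 fold changes were 0.61 ± 0.04 for CNOT6 (adjusted p = 3.49e-10) and -0.67 ± 0.05 for CNOT6L (SE; adjusted p = 7.1e-10). Within a library there were 1.75, 1.59 and 1.57 CNOT6 counts per CNOT6L count in shKDM6B, against 0.67, 0.684 and 0.655 in shLuc, so that CNOT6 was the more counted of the pair in every shKDM6B library and CNOT6L in every shLuc library. That this ratio separated the groups follows from the opposite changes of its 2 genes. Both calls held under all 17 settings. The pseudogene CNOT6LP1, looked up after these values were seen, had at most 1 count in any library.

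CNOT9, a CCR4-NOT subunit that contacts GW182 proteins and is listed under its older symbol RQCD1, averaged 163 ± 1.71 CPM in shKDM6B and 221 ± 4.11 CPM in shLuc (SD, n = 3 each; log2 fold change -0.44, adjusted p = 1.61e-08). TOB2, an adaptor of the same complex, and PAN2, the catalytic subunit of the other deadenylase, were lower too and were chosen after their values were seen. TOB2 averaged 69.2 ± 5.23 CPM in shKDM6B and 103 ± 7.80 CPM in shLuc (log2 fold change -0.56, adjusted p = 9.54e-08) and PAN2 averaged 182 ± 13.4 CPM in shKDM6B and 244 ± 6.39 CPM in shLuc (log2 fold change -0.42, adjusted p = 5.51e-07). The scaffold CNOT1, at 0.05, and the catalytic subunits CNOT7 and CNOT8, at 0.04 and -0.10 on the log2 scale, were not past the threshold.

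In the list of decapping, repression and decay 2 genes rose, 4 fell and 9 did not pass. EDC3, an enhancer of decapping, had 67.3, 68.0 and 76.3 CPM in shKDM6B libraries 1 to 3, against 109.6, 109 and 104 CPM in shLuc libraries 1 to 3. No shKDM6B library reached the shLuc range, and the log2 fold change was -0.60 ± 0.05 (SE; adjusted p = 4.63e-09). LSM14A, a P-body protein, averaged 203 ± 6.28 CPM in shKDM6B and 166 ± 3.80 CPM in shLuc (log2 fold change 0.28, adjusted p = 1.35e-05). EIF4E2, a cap-binding protein that represses translation, averaged 94.3 ± 3.46 CPM in shKDM6B and 109.6 ± 1.34 CPM in shLuc (log2 fold change -0.22, adjusted p = 0.000457). The decapping enzyme DCP2 and the helicase DDX6 were not past the threshold, at -0.02 and 0.03.

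Of the genes that tail, trim or clear small RNAs 3 rose, 2 fell and 4 did not pass. TUT4, a uridylyl transferase listed as ZCCHC11, averaged 118 ± 3.69 CPM in shKDM6B and 95.8 ± 4.38 CPM in shLuc (SD, n = 3 each; log2 fold change 0.30, adjusted p = 2.06e-05). ERI1, an exonuclease, averaged 67.9 ± 3.04 CPM in shKDM6B and 55.2 ± 3.26 CPM in shLuc (log2 fold change 0.30, adjusted p = 0.00019). PARN, a poly(A) ribonuclease, averaged 73.1 ± 1.86 CPM in shKDM6B and 85.7 ± 2.90 CPM in shLuc (log2 fold change -0.23, adjusted p = 0.000493). LIN28B had 0 counts in all 6 libraries and its paralog LIN28A at most 1. Among Argonaute partners 2 rose, 1 fell and 6 did not pass. The helicase MOV10 was at 0.18 (log2, adjusted p = 0.0139) and GEMIN4 at 0.14 (adjusted p = 0.0196), and both calls were lost in 4 of 17 settings, MOV10 without shKDM6B library 2 or 3 and GEMIN4 without shKDM6B library 2 or shLuc library 3 among them. TRIM71, a developmental partner of AGO2, had 4, 4 and 4 counts in the shKDM6B libraries and 9, 13 and 13 in the shLuc libraries (log2 fold change -1.56, adjusted p = 0.00254). The call was lost in the DESeq2 Wald test and without the keratin-bearing libraries, where the log2 fold change was -1.58 and -1.81.

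Of the proteins that bind or sense double-stranded RNA, which also meet hairpins, 2 rose, 5 fell and 4 did not pass. That was 63.6% called, against 39.1% of all genes tested, but 11 genes are too few to read this as a trait of the list. TLR3, an endosomal sensor, had 2, 3 and 0 counts in the shKDM6B libraries and 10, 16 and 12 in the shLuc libraries (adjusted p = 0.000156), low in both groups. STRBP, at -0.19 (adjusted p = 0.00114), and STAU1, at -0.18 on the log2 scale (adjusted p = 0.00249), were lower, and both calls were lost with TMM from sparsely counted genes, at -0.14 and -0.13. RIGI, a cytoplasmic sensor listed as DDX58 and chosen after its values were seen, had 13.2, 11.1 and 11.9 CPM in shKDM6B libraries 1 to 3, against 15.2, 19.7 and 15.0 CPM in shLuc libraries 1 to 3 (log2 fold change -0.47, adjusted p = 0.00384). The groups did not overlap, and shLuc library 2 stood above the rest. The 2 that rose, DHX9 at 0.11 and IFIH1 at 0.12 (chosen after their values were seen), lost their calls in 14 and 13 of 17 settings, the one without the keratin-bearing libraries among them. ADAR and EIF2AK2, the editing enzyme and the kinase that bind such RNA, were at 0.02 and -0.08 and did not pass.

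Among 12 host genes of microRNAs, whose transcripts carry the hairpins that DROSHA cuts, 2 rose, 1 fell and 9 did not pass. NFYC averaged 76.7 ± 1.23 CPM in shKDM6B and 62.6 ± 2.33 CPM in shLuc (SD, n = 3 each; log2 fold change 0.29, adjusted p = 5.65e-05). MIR22HG had 88, 99 and 133 counts in the shKDM6B libraries and 76, 69 and 55 in the shLuc libraries (log2 fold change 0.62, adjusted p = 0.00277). It passed in all 17 settings, at 0.96 without the keratin-bearing libraries and 0.44 without shLuc library 3. DNM2 was at -0.12 (log2, adjusted p = 0.0394) and kept its call in 8 of 17 settings, and in 1 of the 6 fits that left out a library (shLuc library 3). The MIR17HG and MIR155HG transcripts were at 0.02 and 0.16 and did not pass.

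**Figure D4:**
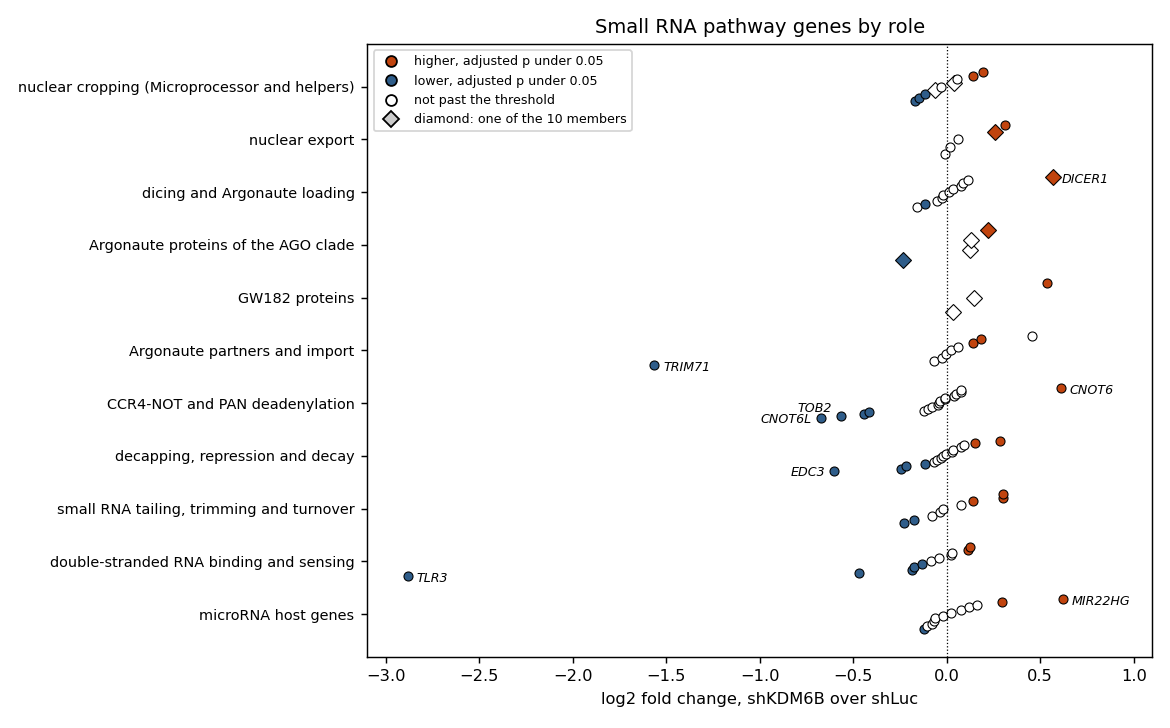
Log2 fold change, shKDM6B over shLuc, of each tested gene of 11 pathway lists, 1 row per list; orange is higher and blue lower at an adjusted p under 0.05, open symbols did not pass, and diamonds are the 10 members. CNOT6 at 0.61 and CNOT6L at -0.67 lie on opposite sides of the same list, and TRIM71 and TLR3, far to the left, rest on at most 16 counts a library.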

How the data were processed

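For every library the authors deposited raw counts as whole numbers under 56637 symbols, and for the series a linear normalized signal, found to be the counts over 1 constant per library. The tools named in the submitters' processing notes are featureCounts, STAR and DESeq, and the build is GRCh37, also called hg19. Their settings (version, annotation, strand, multi-mapping) were not given in the sources used here. One line with a date for a name was left out per library. Totals were 7952156, 8485739 and 9848351 counts in shKDM6B libraries 1 to 3 and 7338393, 8844319 and 8996159 in shLuc libraries 1 to 3, and SDs and intervals cover these libraries and no biological variation beyond them.

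Tests used edgeR 4.0.16 (R 4.3.3). Genes were filtered by filterByExpr, scaled by TMM and fitted over all 6 libraries by glmQLFit and glmQLFTest, two-sided, with the group as term and Benjamini-Hochberg adjustment over 13839 genes. An SE is the size of the log2 fold change over the square root of the F statistic, and 95% intervals use 21.4 degrees of freedom. The 6 replicate pairs were compared over 3190 to 3431 sparsely counted genes each (under 0.03 counts per base of exon). Their counts differed by slightly more than sampling noise, at 1.08 to 1.32 chi-square per degree of freedom (largest chi-square p 0.00102). No pair was therefore treated as the same library deposited again. This does not show that the libraries came from separate cultures. Exon lengths and overlaps come from GENCODE 29, on another build than the counts, and no coordinate was converted. Promoter and microRNA sequences are RefSeq's on GRCh38.p14. All 10 genes and 112 of the 113 pathway symbols were matched, older symbols through a synonym table.

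Besides the 10 genes and KDM6B, the text names every AGO, PIWI and GW182 gene, up to 3 genes past the threshold with the smallest p in each other list, list genes past the threshold with a log2 fold change of at least 1 in size, genes overlapping a member's exons, and the nearest genes by pattern. Any other gene is marked as picked after its value was seen, is a marker, is a list gene that did not pass, or is named for a call lost without the keratin-bearing libraries. The members and the 12 lists were chosen with earlier results of these data known, and so were the motifs, the 20 CPM limit and the ratios. Alternatives were DESeq2 size factors, upper-quartile scaling, TMM from 3374 genes with under 0.03 counts per base, 2 other filters, the replicate number as a block, each library left out, the 3 keratin-bearing libraries left out, the DESeq2 1.42.0 Wald test, limma-voom and limma-trend (limma 3.58.1, log2 of the deposited normalized signal plus 1) and a threshold of 0.01.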

Additional observations from a re-analysis of the deposited data

How the results depend on the processing

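DICER1, XPO5 and AGO1 kept their direction and call, and DROSHA, DGCR8 and TNRC6A stayed outside the threshold, in all 17 alternative settings; no member reversed in any of them. AGO4 (main -0.23) missed the threshold at -0.19 with TMM from genes with few counts per base, at -0.23 without the 3 keratin-bearing libraries, at -0.23 in the DESeq2 Wald test, at -0.23 with a threshold of 0.01, and in 2 of 6 fits that left out 1 library, where it ranged between -0.26 and -0.20. With TMM from genes with few counts per base AGO2 (0.17) and TNRC6B (0.19) passed, and TNRC6B also passed with no filter (0.15) and without the keratin-bearing libraries (0.22). Leaving out 1 library at a time, AGO2 ranged between 0.10 and 0.17, AGO3 between 0.044 and 0.234 and TNRC6B between 0.10 and 0.23.

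The number of members called higher (main 3) was 5 with TMM from genes with few counts per base, and 3 to 6 without 1 library; the number called lower (main 1) was 0 with that scaling, without the keratin-bearing libraries, in DESeq2 and at a threshold of 0.01, and 0 to 1 without 1 library. The replicate number as a block gave 5 members higher, with AGO2 at 0.13 and TNRC6B at 0.15 past the threshold. For these settings the share of all genes called is not given beside the numbers of members. A larger number of members called is therefore no result about the members as a group. Deviations of same-numbered libraries correlated at 0.116, -0.0767 and 0.152. For shKDM6B libraries 1 and 3, but not 2, the same-numbered shLuc library was the best match. With so few libraries this does not settle whether the numbers pair them. Of the other list genes, 9 in DESeq2 and 10 at the 0.01 threshold were higher (main 16), and 11 were lower with TMM from genes with few counts per base (main 21). That scaling moved the median of all genes by 0.04 (log2). Over all genes DESeq2 called 1806 higher and 1578 lower, against 2783 and 2622.

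The lone shKDM6B library left without the keratin-bearing libraries is assumed to vary like the 2 shLuc libraries. The cause of these differences was not tested. AGO4 rests on 165 to 248 counts a library, and TLR3 and TRIM71 on at most 16. Calls of list genes within about 0.15 (log2) of 0 were often lost: cropping genes lower numbered 0 to 3 and dicing and loading genes lower 0 to 2 over the settings, whereas 4 to 5 deadenylation genes were lower and 1 was higher in each.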

Other observations

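Likeness of pattern was measured as the root mean square difference of centred log2 CPM over the 6 libraries. Of 11217 genes with a mean of at least 5 CPM, RP11-284N8.3 (0.0361), APBB2 (0.0403) and NETO2 (0.0433) were nearest to DICER1. APBB2, an adaptor protein that binds the amyloid precursor protein, had 17.2, 19.4 and 18.8 CPM in shKDM6B libraries 1 to 3 and 11.26, 11.97 and 13.0 CPM in shLuc libraries 1 to 3. NETO2, an auxiliary subunit of kainate receptors, had 46.96, 48.9 and 46.1 CPM in shKDM6B and 28.3, 30.0 and 37.5 CPM in shLuc. These nearest genes were picked from many by this measure over libraries of 2 groups that differ, and a small distance is a description.

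Among the members themselves the nearest to DICER1 was XPO5, at 0.198, farther than any other member stood from its own nearest. AGO3 and TNRC6B were nearest to each other at 0.0654. AGO1 was nearest to AGO2 (0.0635), and AGO4, at 0.104, was nearest to DROSHA, the other member whose shKDM6B libraries all lay below the shLuc ones.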
